A study of Homo sapiens with 9 samples.

Results

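The nuclear lamina genes were studied as a set of 9 genes, LMNA, LMNB1, LMNB2, TMPO, EMD, LEMD3, BANF1, SUN1 and SUN2, chosen by gene symbol among the 60966 genes of the deposited tables. Their 162 listed transcripts, of 244443 in all, were summed per gene. RNA-seq was performed on polyA RNA of a human lung cancer cell line labelled H1299, which was grown from a lymph node metastasis of a lung cancer and is widely used as a lung cancer model. Cells were transfected for 48 h with 100 nM of a scrambled siRNA (Scramble, n = 3), of the FIBP siRNA Si-FIBP#1 (n = 3) or of the FIBP siRNA Si-FIBP#2 (n = 3), and the labels give no other difference between the groups. Nothing in the labels says that the 3 samples of a group were separate cultures, so p-values measure the spread between these samples, which may be technical. FIBP encodes the intracellular binding protein of fibroblast growth factor 1, and the comparisons ask which transcripts change when it is silenced.

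The nuclear lamina is a meshwork of lamin filaments under the inner nuclear membrane. A-type lamins come from LMNA by alternative splicing, whereas the B-type lamins come from LMNB1 and LMNB2 and stay attached to the membrane through a farnesyl group. LEM-domain proteins bind lamins on one side and BANF1, a DNA-binding protein, on the other, and SUN proteins span the inner membrane and connect the lamina to the cytoskeleton. The lamina is taken apart at each mitosis, and a low level of lamin B1 is widely used as a mark of senescent cells.

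Expression is given in FPKM, which scales the fragments of a transcript by its length and by the depth of the library, so that levels of different genes can be compared. The depth estimated from the smallest steps in low FPKM values was 20150000 to 23800000 fragments per sample, and 13894 to 14715 genes per sample reached 1 FPKM. FIBP was 88.38, 79.49 and 77.74 FPKM in the Scramble samples, 7.49, 7.77 and 4.30 in Si-FIBP#1 cells and 7.13, 5.92 and 8.21 in Si-FIBP#2 cells, so the targeted gene was at 7.96% and 8.66% of its Scramble mean. The line expressed the markers VIM, KRT8, KRT18, KRT7 and CDH2, whereas EPCAM and KRT19 stayed at 0.28 and 0.29 FPKM or lower in every sample. KRT18 was lower with each siRNA, with a log2 fold change of -1.19 in Si-FIBP#1 cells and -1.45 in Si-FIBP#2 cells (limma, adjusted p = 2.01e-05 and 6.88e-06). VIM with -0.49 and -0.715 (adjusted p = 0.00512 and 0.000572) and KRT8 with -0.53 and -0.49 (adjusted p = 0.000335 and 0.000542) were lower too, and CDH2 was higher, with 0.35 and 0.43 (adjusted p = 0.00138 and 0.000426). The 7 markers of blood, endothelial, stromal and liver cells summed to at most 2.54 FPKM in any sample, and the T-cell marker CD3E was at 0 in all of them.

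Most of the lamina genes were lower in FIBP-depleted cells. A gene was called when the limma test gave an adjusted p under 0.05 and the change was over 2-fold. In Si-FIBP#1 cells, 2 of the 9 genes were called lower, LMNB1 and TMPO, where 3.11% of the 14985 tested genes were called lower. In Si-FIBP#2 cells, 1 of the 9 was called lower, TMPO, against 2.13% of all tested genes. Both siRNAs together against Scramble gave LMNB1 and TMPO, against 2.45% of all tested genes. With the adjusted p alone, 7 of 9 were lower in Si-FIBP#1 cells, against 19.9% of all genes, and 7 of 9 in Si-FIBP#2 cells, against 17.7%. Both siRNAs together gave 6 of 9, against 20.3%. The 9 genes and the lists below were chosen with earlier results of these data known. Their counts beside the shares of all genes are therefore descriptions and support no excess among lamina genes. All 9 genes passed the filter on low values, and none of them was significantly higher. Of all genes, 27.8% were higher with Si-FIBP#1 and 31.1% with Si-FIBP#2 by the adjusted p alone. Over all genes, 438 were called higher and 319 lower with the second siRNA, but 332 and 437 after median-ratio scaling, and with both siRNAs together 354 and 367, but 275 and 462. The median log2 fold change of the 9 genes was -0.46 in Si-FIBP#1 cells and -0.55 in Si-FIBP#2 cells, beside 0.07 and 0.11 over all tested genes. The comparisons with each siRNA share the same 3 Scramble samples. In 6 of the 9 genes every FIBP-depleted sample lay below every Scramble sample, which held for 16.5% of all tested genes. In bulk RNA, fewer cells of a type and less RNA per cell cannot be told apart.

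**Figure D1:**
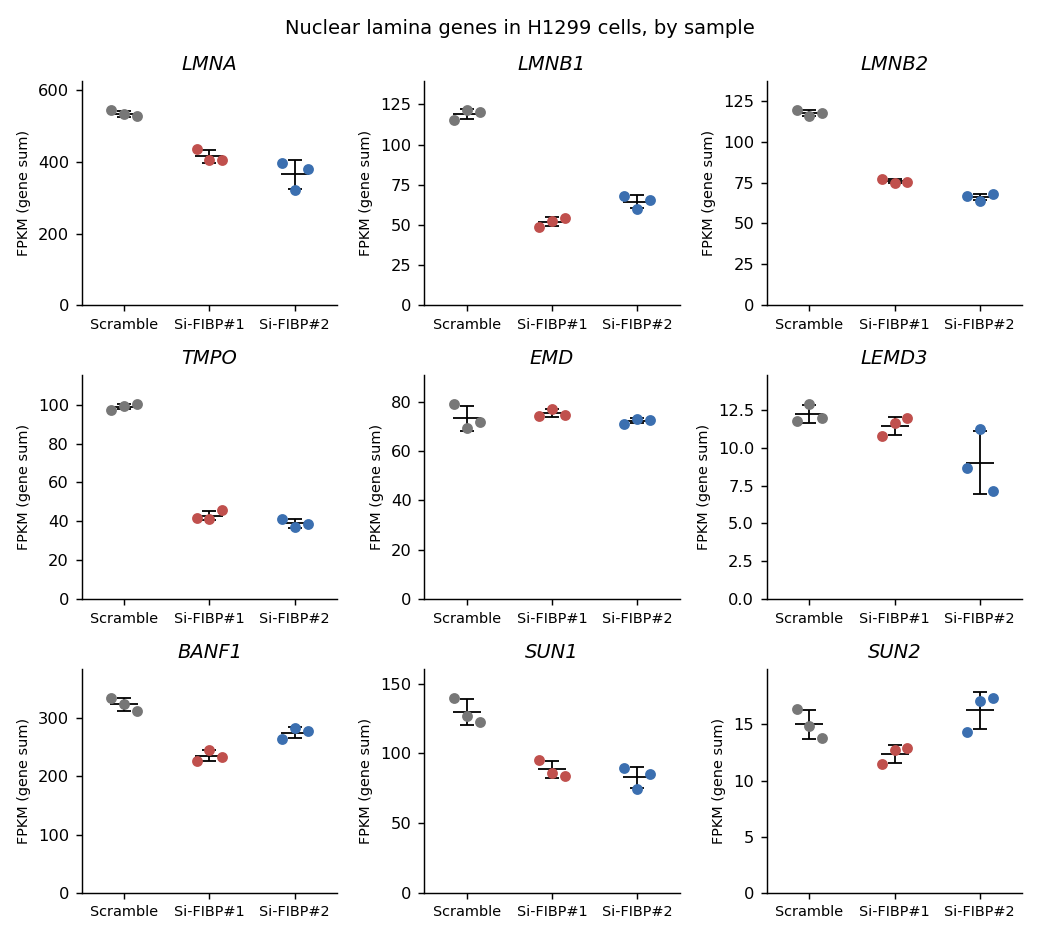
Summed FPKM (y axis, from 0) of each lamina gene in the 3 samples of each group (points), with the mean and SD (black lines). In LMNA, LMNB1, LMNB2, TMPO, BANF1 and SUN1 all 6 FIBP-depleted samples lie below the 3 Scramble samples, while EMD, LEMD3 and SUN2 overlap.

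To show what the promoters of these genes share, the sequence before the RefSeq start site is printed for LMNB1 and TMPO, which were called lower, and for EMD, which was not. The windows hold the 250 bases upstream of the start, 5′ to 3′ on the strand of the gene, from RefSeq on GRCh38.p14. They are chr5:126776373-126776622 (plus) for LMNB1, chr12:98515323-98515572 (plus) for TMPO and chrX:154379045-154379294 (plus) for EMD. Capitals mark matches to any searched motif on either strand.
LMNB1: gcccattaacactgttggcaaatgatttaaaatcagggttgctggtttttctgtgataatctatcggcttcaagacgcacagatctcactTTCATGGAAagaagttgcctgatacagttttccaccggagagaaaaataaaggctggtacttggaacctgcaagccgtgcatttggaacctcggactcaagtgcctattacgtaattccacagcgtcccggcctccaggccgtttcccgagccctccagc
TMPO: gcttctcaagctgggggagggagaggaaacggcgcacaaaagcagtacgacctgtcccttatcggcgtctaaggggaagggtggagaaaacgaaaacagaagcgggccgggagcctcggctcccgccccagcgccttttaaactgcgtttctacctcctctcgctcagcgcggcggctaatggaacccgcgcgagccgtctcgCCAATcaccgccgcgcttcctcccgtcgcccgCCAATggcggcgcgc
EMD: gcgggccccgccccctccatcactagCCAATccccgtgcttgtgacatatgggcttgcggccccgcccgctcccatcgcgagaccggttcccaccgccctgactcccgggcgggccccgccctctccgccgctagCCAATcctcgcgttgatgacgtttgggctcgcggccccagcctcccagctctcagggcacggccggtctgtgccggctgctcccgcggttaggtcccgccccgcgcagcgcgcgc
The letters searched were TTTCCCGC, TTTGGCGC, TTTCGCGC and TTTGCCGC for E2F, TTTGAA and TTCGAA for the cell cycle homology region (CHR), CCAAT for the CCAAT box, and TTCNNNGAA for STAT factors, in the window from 250 bases before to 50 bases after the start. The CHR and STAT letters can overlap each other.

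In this window LMNB1 held 1 STAT match, at position -160 from the start, and none of the other letters. TMPO held 2 CCAAT matches, at -47 and -15, and EMD held 2 as well, at -224 and -115. Among the other lamina genes with a listed promoter, LMNA and LEMD3 each held 1 E2F match and 1 CCAAT match, LMNB2 held 1 CHR match and 1 STAT match that overlap, SUN2 held 1 CHR match and 2 CCAAT matches, and BANF1 held none. Of 27305 promoters, 3.33% held an E2F match, 16.6% a CHR match, 35.7% a CCAAT match and 7.88% a STAT match. Of the genes with a CCAAT match, TMPO and LMNA fell with each siRNA by the adjusted p, and EMD fell with neither. LEMD3 and SUN2, which hold it too, fell with a single siRNA. Whether any match plays a part was not tested. SUN1 was not matched.

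LMNB1 (ENSG00000113368; chromosome 5, 126776623 to 126837020, plus strand, GRCh38) encodes lamin B1. It was 115.37, 121.34 and 120.39 FPKM in the Scramble samples, 48.70, 52.72 and 54.09 in Si-FIBP#1 cells and 67.85, 59.97 and 65.55 in Si-FIBP#2 cells. The 3 groups did not overlap, and the Si-FIBP#1 samples were the lowest. The mean fell from 119 ± 3.21 FPKM (SD, n = 3) to 51.8 ± 2.80 in Si-FIBP#1 cells, 43.5% of Scramble, and to 64.5 ± 4.05 in Si-FIBP#2 cells, 54.2% of Scramble. Its log2 fold change was -1.185 ± 0.061 (SE) in Si-FIBP#1 cells (limma, adjusted p = 8.91e-07) and -0.88 ± 0.061 in Si-FIBP#2 cells (limma, adjusted p = 5.13e-06), so the Si-FIBP#2 change was significant but under 2-fold.

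LMNB2 (ENSG00000176619; chromosome 19, 2427638 to 2456996, minus strand) encodes lamin B2, the other B-type lamin. Its level was 119.23, 115.68 and 117.64 FPKM in Scramble, 77.16, 75.05 and 75.36 in Si-FIBP#1 cells and 66.76, 63.97 and 67.89 in Si-FIBP#2 cells. Here too the 3 groups did not overlap, but the lowest samples were those of Si-FIBP#2. Its log2 fold changes were -0.625 ± 0.043 (limma, adjusted p = 4.14e-06) and -0.82 ± 0.043 (adjusted p = 1.27e-06), both under 2-fold. LMNB2 shares 257 of its 5432 annotated exon bases with TIMM13 on the same strand.

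LMNA (ENSG00000160789; chromosome 1, 156082573 to 156140089, plus strand) encodes lamins A and C and was the highest of the 9 genes on the FPKM scale. It was 543.93, 532.38 and 526.83 FPKM in Scramble, 436.47, 404.05 and 405.41 in Si-FIBP#1 cells and 396.96, 320.15 and 380.01 in Si-FIBP#2 cells. All FIBP-depleted samples were below Scramble, and the spread was widest in Si-FIBP#2 cells, where replicate 2 was the lowest. On the log2 scale the change was -0.36 ± 0.073 in Si-FIBP#1 cells (limma, adjusted p = 0.00276) and -0.55 ± 0.073 in Si-FIBP#2 cells (adjusted p = 0.000236).

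LMNA took a larger share of the lamin transcripts in FIBP-depleted samples. LMNB1 made up 15.4% ± 0.541 (SD, n = 3) of the summed lamin FPKM in Scramble, 9.56% ± 0.787 in Si-FIBP#1 cells and 13.0% ± 0.426 in Si-FIBP#2 cells. LMNB2 made up 15.2% ± 0.183, 14.0% ± 0.219 and 13.4% ± 0.935, and LMNA 69.3% ± 0.504, 76.5% ± 1.00 and 73.6% ± 1.34. There were 4.38 to 4.71 LMNA FPKM per LMNB1 FPKM in the Scramble samples, 7.50 to 8.96 in Si-FIBP#1 cells and 5.34 to 5.85 in Si-FIBP#2 cells. The ranges of this ratio did not overlap between any of the groups, and no test was run on it. The shares show unequal change only, and the lamin total itself fell from 765 to 779 FPKM in Scramble to 532 to 562 in Si-FIBP#1 cells and 444 to 532 in Si-FIBP#2 cells.

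**Figure D2:**
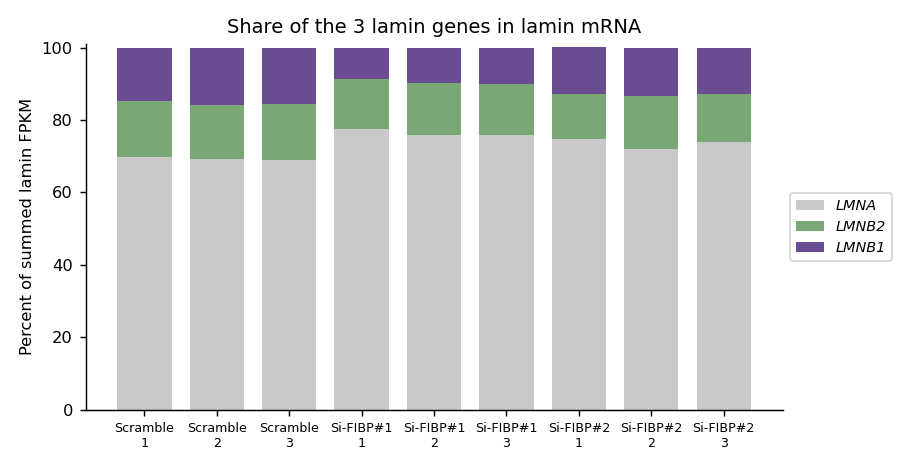
Percent of the summed lamin FPKM (y axis, from 0) taken by LMNA, LMNB2 and LMNB1 in each of the 9 samples (bars, named by group and replicate). The LMNB1 share is 14.8% to 15.8% in Scramble, 8.66% to 10.1% in Si-FIBP#1 cells and 12.8% to 13.5% in Si-FIBP#2 cells.

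TMPO (ENSG00000120802; chromosome 12, 98515512 to 98550379, plus strand) encodes the lamina-associated polypeptides 2 (LAP2), LEM-domain proteins that include a soluble form, alpha, and membrane forms such as beta. TMPO was 97.39, 99.36 and 100.32 FPKM in Scramble, 41.76, 41.32 and 45.61 in Si-FIBP#1 cells and 41.42, 36.83 and 38.39 in Si-FIBP#2 cells. The FIBP-depleted samples all lay below Scramble, at 43.3% and 39.3% of its mean, while the siRNA groups overlapped each other. The log2 fold change was -1.19 ± 0.059 in Si-FIBP#1 cells (limma, adjusted p = 7.9e-07) and -1.33 ± 0.059 in Si-FIBP#2 cells (adjusted p = 6.69e-07). TMPO was the only lamina gene past 2-fold with each siRNA taken alone. It shares 713 of its 8593 exon bases with the antisense gene TMPO-AS1, which was 4.55 FPKM in Scramble, 1.26 in Si-FIBP#1 cells and 1.99 in Si-FIBP#2 cells, and whether the counting used the strand is not stated.

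EMD (ENSG00000102119; chromosome X, 154379197 to 154381523, plus strand) encodes emerin, a LEM-domain protein of the inner nuclear membrane that binds lamin A. It was 79.11, 69.23 and 71.81 FPKM in Scramble, 74.31, 77.31 and 74.79 in Si-FIBP#1 cells and 71.12, 73.05 and 72.71 in Si-FIBP#2 cells. Scramble overlapped each siRNA group, while the Si-FIBP#1 samples all lay above the Si-FIBP#2 samples (log2 difference -0.061, limma, adjusted p = 0.511). Its log2 fold change was 0.042 ± 0.055 in Si-FIBP#1 cells (limma, adjusted p = 0.561) and -0.019 ± 0.055 in Si-FIBP#2 cells (adjusted p = 0.798). Its value in Si-FIBP#1 cells ran from -0.032 with median-ratio scaling to 0.106 with Ensembl transcripts only, so EMD had no stable direction.

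LEMD3 (ENSG00000174106; chromosome 12, 65169571 to 65248327, plus strand) encodes MAN1, a LEM-domain protein that also restrains SMAD signaling. It was the lowest of the 9 genes, at 11.77, 12.89 and 11.98 FPKM in Scramble, 10.76, 11.62 and 11.96 in Si-FIBP#1 cells and 8.67, 11.24 and 7.13 in Si-FIBP#2 cells. The Si-FIBP#2 samples were below Scramble but spread widely, and the Si-FIBP#1 samples overlapped it. On the log2 scale the change was -0.086 ± 0.13 in Si-FIBP#1 cells (limma, adjusted p = 0.614) and -0.42 ± 0.13 in Si-FIBP#2 cells (adjusted p = 0.0232). Significance in Si-FIBP#2 cells was lost without Scramble replicate 2 (adjusted p = 0.0718) or 3 (0.0501), without Si-FIBP#2 replicate 1 (0.0579) or 3 (0.0694), and with no filter on low values (0.0637).

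BANF1 (ENSG00000175334; chromosome 11, 66002079 to 66004149, plus strand) encodes the barrier-to-autointegration factor, which links DNA to LEM-domain proteins. It was 334.35, 324.17 and 312.22 FPKM in Scramble, 226.59, 245.25 and 233.71 in Si-FIBP#1 cells and 263.98, 283.10 and 276.89 in Si-FIBP#2 cells. The groups did not overlap, and Si-FIBP#2 lay between Scramble and Si-FIBP#1. The log2 fold change was -0.46 ± 0.048 (limma, adjusted p = 5.08e-05) and -0.24 ± 0.048 (adjusted p = 0.00271). BANF1 and TMPO have processed pseudogenes elsewhere in the genome, so reads could have been split between copies. BANF1 also shares 98 of its 1645 exon bases with EIF1AD on the opposite strand.

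SUN1 and SUN2 encode proteins that reach through the inner nuclear membrane. SUN1 (ENSG00000164828; chromosome 7, 816615 to 896435, plus strand) was 139.79, 126.85 and 122.45 FPKM in Scramble, 95.55, 86.17 and 84.02 in Si-FIBP#1 cells and 89.17, 74.39 and 84.94 in Si-FIBP#2 cells. All FIBP-depleted samples were below Scramble, and the log2 fold change was -0.545 ± 0.081 (limma, adjusted p = 0.000463) and -0.64 ± 0.081 (adjusted p = 0.000175). GET4 shares 1842 of the 11811 SUN1 exon bases on the same strand, and its level was 53.62 FPKM in Scramble, 59.92 in Si-FIBP#1 cells and 73.39 in Si-FIBP#2 cells.

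SUN2 (ENSG00000100242; chromosome 22, 38734725 to 38794143, minus strand) was 16.35, 14.86 and 13.76 FPKM in Scramble, 11.48, 12.75 and 12.94 in Si-FIBP#1 cells and 14.35, 17.06 and 17.36 in Si-FIBP#2 cells. The Si-FIBP#1 samples were below Scramble and the Si-FIBP#2 samples overlapped it. Its log2 fold change was -0.255 ± 0.093 in Si-FIBP#1 cells (limma, adjusted p = 0.0466) and 0.11 ± 0.093 in Si-FIBP#2 cells (adjusted p = 0.363). Significance in Si-FIBP#1 cells was lost without Scramble replicate 1 (adjusted p = 0.148) or 2 (0.0946), without Si-FIBP#1 replicate 1 (0.14), 2 (0.0769) or 3 (0.0624), and without Si-FIBP#2 replicate 3 (0.0524). Assembled transcripts held 70.1% of the SUN2 FPKM, and significance was also lost with Ensembl transcripts only (adjusted p = 0.231), with no filter on low values (0.0954), with no variance trend (0.0559) and with a replicate block (0.0668). SUN2 shares 680 of its 6489 exon bases with GTPBP1 on the opposite strand, and smaller parts with DNAL4 and antisense genes. GTPBP1 was 11.68 FPKM in Scramble, 13.09 in Si-FIBP#1 cells and 14.32 in Si-FIBP#2 cells.

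**Figure D3:**
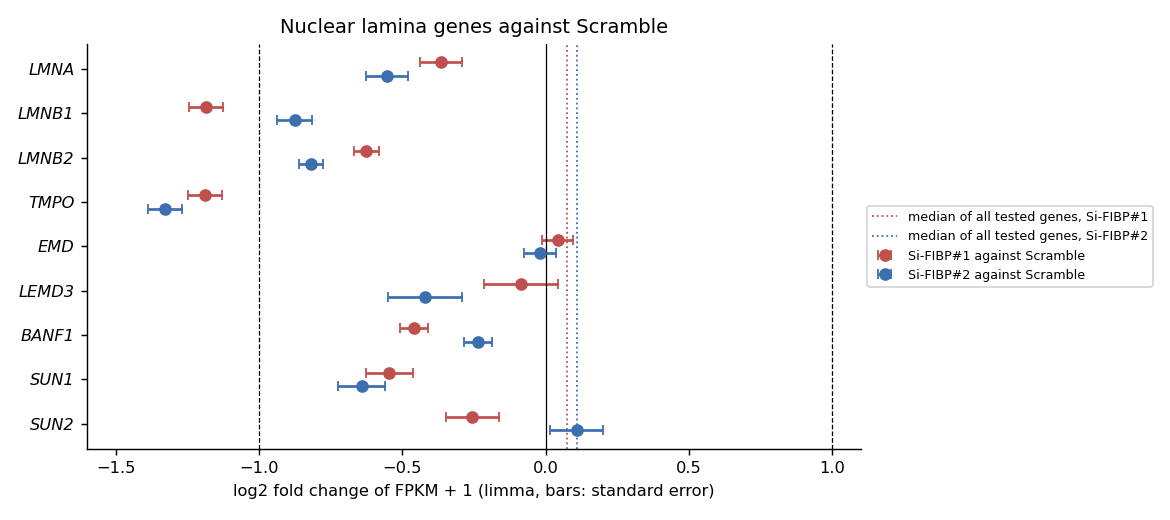
Log2 fold change of FPKM + 1 against Scramble (x axis) for each lamina gene in Si-FIBP#1 cells and Si-FIBP#2 cells (red and blue points, with bars of 1 standard error), beside the median of all tested genes (dotted lines) and 2-fold (dashed lines). TMPO is past 2-fold with each siRNA, LMNB1 in Si-FIBP#1 cells, and EMD lies near 0.

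The order of the 9 genes by FPKM in Scramble was LMNA, BANF1, SUN1, LMNB1, LMNB2, TMPO, EMD, SUN2 and LEMD3. Of these neighbors, only LMNB1 and LMNB2 overlapped in their samples. In Si-FIBP#1 cells the order was LMNA, BANF1, SUN1, LMNB2, EMD, LMNB1, TMPO, SUN2 and LEMD3, with overlap between LMNB2 and EMD and between SUN2 and LEMD3. In Si-FIBP#2 cells it was LMNA, BANF1, SUN1, EMD, LMNB2, LMNB1, TMPO, SUN2 and LEMD3, with overlap between LMNB2 and LMNB1. EMD was thus below LMNB1 and TMPO in Scramble and above both with each siRNA.

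The siRNAs were then compared with each other. The Scramble samples do not enter this difference, but they add to the shared estimate of the spread and to the filter on low values. None of the 9 genes differed by over 2-fold, where 0.561% of all tested genes did in either direction. By the adjusted p alone, LMNB1, BANF1 and SUN2 were higher in Si-FIBP#2 cells than in Si-FIBP#1 cells, against 9.58% of all genes, and LMNB2 was lower, against 5.8%. The log2 difference was 0.31 ± 0.061 for LMNB1 (limma, adjusted p = 0.00982), 0.22 ± 0.048 for BANF1 (adjusted p = 0.0134), 0.36 ± 0.093 for SUN2 (adjusted p = 0.0286) and -0.19 ± 0.043 for LMNB2 (adjusted p = 0.0161). LMNB1 and LMNB2 therefore differed between the siRNAs in opposite directions. For LMNA the difference was -0.19 ± 0.073 (adjusted p = 0.118), for TMPO -0.14 ± 0.059 (adjusted p = 0.151) and for SUN1 -0.098 ± 0.081 (adjusted p = 0.47). LMNB2 lost significance in a fit of only the siRNA samples (adjusted p = 0.0538). LMNB2 and BANF1 lost it without Si-FIBP#1 replicate 1 (adjusted p = 0.0555 and 0.0518), BANF1 without Si-FIBP#2 replicate 3 (0.0511), and SUN2 without Si-FIBP#1 replicate 1 (0.0958) or 2 (0.0666), without Si-FIBP#2 replicate 2 (0.0601) or 3 (0.103), with no filter on low values (0.0681) and with Ensembl transcripts only (0.341). Without Si-FIBP#1 replicate 1, 1 of the 4 genes stayed significant, LMNB1. LEMD3, at -0.33 ± 0.13 (adjusted p = 0.118), passed without Si-FIBP#2 replicate 2 (adjusted p = 0.00871).

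The 7 bases that pair with the guide seed of each siRNA were looked up in the longest annotated 3′ UTR of each gene. TTCAGCA, for Si-FIBP#1, was found in SUN1 alone among the 9 genes, with 2 copies, and in 16.7% of the 11842 tested genes with such an annotation. TTTGCTA, for Si-FIBP#2, was found once each in TMPO and LEMD3, and in 16.7% of those genes. The TMPO 3′ UTR searched is that of ENST00000556029, the LAP2 beta transcript, so TMPO transcripts with another 3′ UTR were not searched. LMNB1, LMNB2, LMNA, BANF1, EMD and SUN2 held neither.

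The transcripts behind the gene sums were examined next. Of the 74 tested transcripts of the lamina genes, 8 were called lower in Si-FIBP#1 cells, where 2.99% of all 47662 tested transcripts were, and 9 in Si-FIBP#2 cells, where 2.26% were. TMPO gave 5 and 7 of these. In each count, 2 TMPO transcripts passed the filter on low values only through the Scramble samples, where they are high, so their calls support nothing, and 6 and 7 transcripts remain without them, 3 and 5 of TMPO. Of the TMPO FPKM, 36.6% lay in transcripts assembled by the authors. In Si-FIBP#1 cells, 2 transcripts were called higher, where 2.35% of all tested transcripts were, both annotated as processed transcripts with no coding sequence. ENST00000524628 of BANF1 went from 3.56 ± 0.864 FPKM in Scramble to 11.7 ± 2.88 in Si-FIBP#1 cells and 5.46 ± 0.934 in Si-FIBP#2 cells, and ENST00000475819 of LMNB2 was 0.713 ± 1.24 FPKM, 3.38 ± 1.38 and listed at 0 in those groups. The LMNB2 transcript passed the filter on low values only through the Si-FIBP#1 samples, where it is high, so its call supports nothing.

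The TMPO transcripts for LAP2 alpha and LAP2 beta both fell. ENST00000266732, which codes for the 694 residues of LAP2 alpha, was 35.01, 36.85 and 36.89 FPKM in Scramble, 20.56, 21.66 and 23.46 in Si-FIBP#1 cells and 18.90, 17.55 and 17.67 in Si-FIBP#2 cells. ENST00000556029, which codes for the 454 residues of LAP2 beta, was 14.50, 16.06 and 13.84 FPKM in Scramble, 5.05, 3.70 and 5.60 in Si-FIBP#1 cells and 3.86, 4.70 and 4.01 in Si-FIBP#2 cells. Neither transcript overlapped between Scramble and the FIBP-depleted samples. On the log2 scale the change was -0.70 ± 0.069 and -0.97 ± 0.069 for LAP2 alpha (limma over transcripts, adjusted p = 0.000269 and 6.3e-05) and -1.46 ± 0.14 and -1.61 ± 0.14 for LAP2 beta (adjusted p = 0.000236 and 0.000167), so on the log2(FPKM + 1) scale only LAP2 beta passed 2-fold. In FPKM, LAP2 alpha was at 49.8% of Scramble in Si-FIBP#2 cells.

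As a share of TMPO FPKM, LAP2 alpha was 36.6% ± 0.588 (SD, n = 3) in Scramble, 51.0% ± 1.63 in Si-FIBP#1 cells and 46.4% ± 1.07 in Si-FIBP#2 cells, and LAP2 beta was 14.9% ± 1.18, 11.1% ± 1.87 and 10.8% ± 1.76. With both siRNAs together the LAP2 alpha share was 12.1 percentage points higher and the LAP2 beta share lower by a difference of -3.97 points. Each had p = 0.0238 in a two-sided exact permutation test, the smallest p that 3 against 6 samples allow, and 0.0952 after adjustment over 12 tests. Because 8 of these compare 3 against 3 samples, where p cannot go below 0.1, no share could pass after adjustment, and the adjusted values say nothing about the shares. The LAP2 gamma transcript was listed at 0 in all samples. Each form was read from a single transcript, and the rest of the TMPO FPKM was not assigned to a form. It includes assembled transcripts such as MSTRG.6388.5, at 14.0 FPKM in Scramble beside 14.8 for the LAP2 beta transcript.

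**Figure D4:**
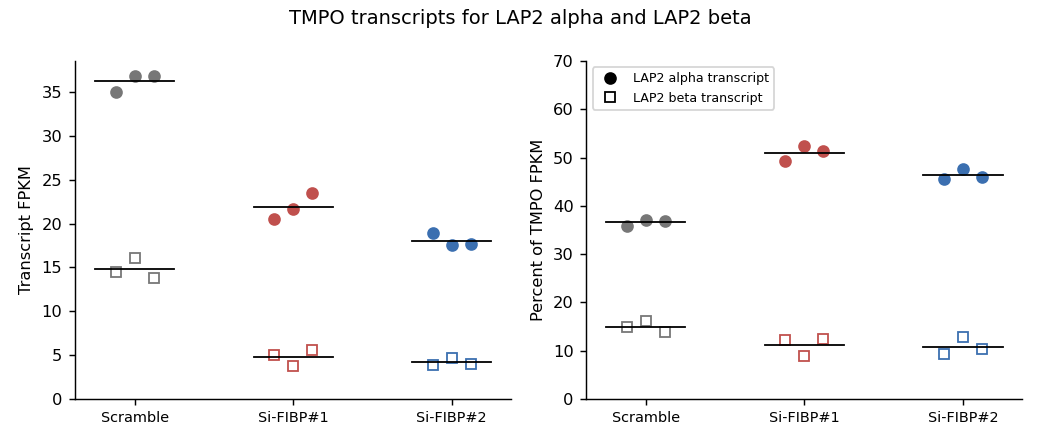
FPKM (left, y axis from 0) and percent of the TMPO FPKM (right, y axis from 0) of the LAP2 alpha and LAP2 beta transcripts in each sample, with group means as lines. Both transcripts are lower in all 6 FIBP-depleted samples, while the LAP2 alpha share is 35.9% to 37.1% in Scramble and 45.6% to 52.4% in the depleted samples.

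LMNB1 had one main transcript, ENST00000261366, which codes for the 586 residues of lamin B1. It was 90.8 ± 1.58 FPKM in Scramble, 36.9 ± 0.67 in Si-FIBP#1 cells and 46.9 ± 5.41 in Si-FIBP#2 cells, with a log2 fold change of -1.275 ± 0.080 and -0.945 ± 0.080 (limma over transcripts, adjusted p = 3.24e-05 and 0.000146). A shorter transcript with no coding sequence, ENST00000504788, went from 26.4 ± 3.37 to 13.4 ± 2.59 and 16.2 ± 1.52 FPKM. The main LMNB2 transcript, ENST00000325327, went from 111 ± 2.18 to 67.0 ± 2.34 and 59.7 ± 1.67 FPKM.

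LMNA was spread over many transcripts, and 48.4% of its FPKM lay in those of GENCODE release 29. The transcript for the 664 residues of prelamin A, ENST00000368300, was 50.6 ± 0.619 FPKM in Scramble, 32.7 ± 3.62 in Si-FIBP#1 cells and 29.4 ± 2.20 in Si-FIBP#2 cells, with a log2 fold change of -0.62 ± 0.088 and -0.765 ± 0.088 (limma over transcripts, adjusted p = 0.00177 and 0.00067). The lamin C transcript, ENST00000368301, was 5.24 ± 3.25 FPKM, 6.31 ± 2.35 and 5.84 ± 1.86, and its differences did not pass the test (adjusted p = 0.623 and 0.744). In Scramble the lamin A and lamin C transcripts held 9.47% and 0.985% of the LMNA FPKM. The rest lay in transcripts not assigned to either protein here, so these values do not give total lamin A or lamin C mRNA. The lamin A and lamin C transcripts share most of their exons.

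The genes most like LMNB1 over the 9 samples, by Pearson's r of log2(FPKM + 1) among 10013 tested genes with a mean of at least 5 FPKM, were KIF2C (r = 0.999), CIP2A (0.998), BRI3BP (0.998), CCNB1 (0.998) and UBE2C (0.998). KIF2C is a kinesin that depolymerizes microtubules, CIP2A is an inhibitor of protein phosphatase 2A, CCNB1 is the mitotic cyclin B1 and UBE2C is the ubiquitin-conjugating enzyme of the anaphase-promoting complex. These are descriptions, since the 9 samples fall into 3 groups. CCNB1 was 281 ± 5.24 FPKM in Scramble, 84.3 ± 3.96 in Si-FIBP#1 cells and 110 ± 11.6 in Si-FIBP#2 cells, and KIF2C was 74.7 ± 2.15, 21.8 ± 1.52 and 30.8 ± 2.87. BRI3BP fell less, from 7.32 ± 0.118 to 4.20 ± 0.143 and 4.83 ± 0.153 FPKM. Within the lamina genes, r with LMNB1 was 0.938 for TMPO, 0.93 for BANF1, 0.879 for LMNB2, 0.875 for SUN1, 0.789 for LMNA, 0.376 for SUN2, 0.322 for LEMD3 and -0.239 for EMD. Among the 10013 genes TMPO ranked 636 and BANF1 697, so many genes followed LMNB1 more closely than any lamina gene did.

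Genes of the G2 and M phases were lower with each siRNA, as LMNB1 and TMPO were. Of 53 genes of a widely used G2/M list, from which TMPO was left out, 43 were called lower in Si-FIBP#1 cells and 24 in Si-FIBP#2 cells, beside the 3.11% and 2.13% of all genes given above. The median log2 fold change of the list was -1.44 and -0.96. Its summed level was 4640 to 4803 FPKM in the Scramble samples, 1852 to 1992 in Si-FIBP#1 cells and 2313 to 2572 in Si-FIBP#2 cells, and none of the 53 was at 0. As for LMNB1, the list was less reduced in Si-FIBP#2 cells, with 40 of 53 genes higher than in Si-FIBP#1 cells by the adjusted p, against 9.58% of all genes, and a median difference of 0.40. TMPO had the opposite order, with a log2 fold change of -1.19 in Si-FIBP#1 cells and -1.33 in Si-FIBP#2 cells, a difference that did not pass the test. The part of these genes in the LMNB1 and TMPO results was not tested.

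The 43 G2/M genes called lower with either siRNA covered several roles. Motors, centromere and checkpoint genes were KIF2C, KIF11, KIF20B, KIF23, CENPA, CENPF, NDC80, NUF2, HJURP, NEK2, TTK, BUB1 and CDC20. Aurora kinases and their partners were AURKA, AURKB, BIRC5, CDCA8 and TPX2, and genes of the CDK1 system and its proteolysis were CDK1, CCNB2, CDC25C, CKS1B, CKS2 and UBE2C. Chromosome genes were TOP2A, SMC4, HMGB2, MKI67 and CDCA2, and the rest were ANLN, ECT2, TACC3, HMMR, GTSE1, CDCA3, DLGAP5, PIMREG, PSRC1, CKAP2, CKAP2L, NUSAP1, GAS2L3 and ANP32E. Of the others, TUBB4B had the largest fall with both siRNAs together (log2 fold change -0.89, limma, adjusted p = 3.13e-07), and JPT1 was the only one with a positive value (0.40, adjusted p = 0.0112).

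Other proteins of the nuclear envelope membrane moved in both directions. Of 26 genes, 23 were tested, and 1 of them was called lower with each siRNA, against 3.11% and 2.13% of all genes. This was NRM, which encodes the inner nuclear membrane protein nurim. NRM was 30.2 ± 0.382 FPKM in Scramble, 14.3 ± 0.765 in Si-FIBP#1 cells and 12.6 ± 1.78 in Si-FIBP#2 cells, with a log2 fold change of -1.03 ± 0.092 and -1.20 ± 0.092 (limma, adjusted p = 2.02e-05 and 9.32e-06). By the adjusted p alone, 6 rose and 8 fell in Si-FIBP#1 cells, against 27.8% and 19.9% of all genes, and 4 rose and 4 fell in Si-FIBP#2 cells, against 31.1% and 17.7%. The median log2 fold change of the list was 0.01 in Si-FIBP#1 cells and 0.04 in Si-FIBP#2 cells. Next to NRM, NEMP1, an inner membrane protein, had the largest fall with both siRNAs together (-0.84, adjusted p = 1.04e-06), and TMEM53 had the largest rise (0.47, adjusted p = 0.025). LBR, the lamin B receptor, is named here after its values were seen, and it went from 30.8 ± 0.975 FPKM to 23.8 ± 0.834 in Si-FIBP#1 cells (log2 fold change -0.36, adjusted p = 0.000837) and 29.4 ± 1.51 in Si-FIBP#2 cells (-0.066, adjusted p = 0.381). LBR is also in the G2/M list.

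A list of lamin maturation genes held enzymes of farnesylation, cleavage and methylation and NARF, which binds prelamin A. None of its 6 tested genes was called with Si-FIBP#1, where 3.11% of all genes were called lower and 2.55% higher. None was called with Si-FIBP#2 either, where 2.13% and 2.92% were. RCE1, a protease of the pathway, had the largest rise with both siRNAs together (log2 fold change 0.69, limma, adjusted p = 0.00146), and ICMT, which methylates the farnesylated end, had the largest fall (-0.325, adjusted p = 0.000626). ICMT was 36.3 FPKM in Scramble, 30.6 in Si-FIBP#1 cells and 27.2 in Si-FIBP#2 cells. The median of the list was 0.08 in Si-FIBP#1 cells and 0.04 in Si-FIBP#2 cells.

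A further list held 28 tested genes for the disassembly, reassembly and sealing of the lamina and envelope. Of these, 5 were called lower in Si-FIBP#1 cells and 3 in Si-FIBP#2 cells, against 3.11% and 2.13% of all genes. None was called higher, against 2.55% and 2.92%. The called genes were CDK1 and its cyclins CCNB1 and CCNB2, the mitotic kinase PLK1 and CDCA2, a subunit that directs protein phosphatase 1 to chromatin at mitotic exit. Of these, CDK1, CCNB2 and CDCA2 are also in the G2/M list. CDK1, which phosphorylates lamins at mitotic entry, went from 114 FPKM in Scramble to 33.4 in Si-FIBP#1 cells and 44.4 in Si-FIBP#2 cells. Beyond the called genes, VRK1, the kinase that phosphorylates BANF1, had the largest fall with both siRNAs together (-0.72, limma, adjusted p = 2.92e-05), and LPIN3, a lipin phosphatase, had the largest positive value, which did not pass (0.54, adjusted p = 0.0597). The list median was 0.0059 and 0.049.

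None of 14 tested chromatin partners of the lamina was called. With Si-FIBP#1, 3.11% of all genes were called lower and 2.55% higher, and with Si-FIBP#2 2.13% and 2.92%. By the adjusted p alone, 8 fell in Si-FIBP#1 cells, against 19.9% of all genes, and 6 fell in Si-FIBP#2 cells, against 17.7%. None rose in Si-FIBP#1 cells, against 27.8% of all genes, and 1 rose in Si-FIBP#2 cells, HDAC3, against 31.1%. The list median was -0.21 and -0.085. SUV39H1, a histone H3 lysine 9 methyltransferase, had the largest fall with both siRNAs together (-0.69, limma, adjusted p = 0.000127), and HDAC3, a histone deacetylase, had the largest rise (0.19, adjusted p = 0.0053). CBX5 and CTCF are in this list and in the G2/M list.

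Of 11 senescence-linked genes beside LMNB1, 8 were tested, and the rest stayed at 0.33 FPKM or lower in every sample. The tested genes did not move in one direction. The list sets no direction for each gene, so mixed signs carry no reading. In Si-FIBP#1 cells, 5 were called lower and 1 higher, against 3.11% and 2.55% of all genes. In Si-FIBP#2 cells, 2 were called lower and 1 higher, against 2.13% and 2.92%. Both lower counts include IGFBP3, which passed the filter on low values only through the Scramble samples, where it is high, so its call supports nothing. GLB1, the lysosomal beta-galactosidase, rose from 24.8 FPKM to 58.2 in Si-FIBP#1 cells and 53.6 in Si-FIBP#2 cells (log2 fold change 1.20 and 1.08, limma, adjusted p = 8.54e-07 and 1.8e-06). CDKN1A, the CDK inhibitor p21, fell in Si-FIBP#1 cells (-1.06, adjusted p = 1.4e-06) and was 0.18 in Si-FIBP#2 cells (adjusted p = 0.0352), close to the median of 0.11 over all genes. HMGB1 and HMGB2, chromatin proteins, fell from 692 and 215 FPKM to 316 and 53.8 in Si-FIBP#1 cells and to 380 and 104 in Si-FIBP#2 cells. The proliferation marker MKI67 had a log2 fold change of -1.50 and -0.97 (adjusted p = 6.54e-06 and 0.000103). IGFBP3 was at 1.18 FPKM in Scramble and 0.0867 FPKM with each siRNA. Beyond these, CDKN2B had the largest rise with both siRNAs together (0.31, adjusted p = 0.0291), and CDKN2A had the only other negative value (-0.13, adjusted p = 0.074). CDKN2A was 0.088 in Si-FIBP#1 cells (adjusted p = 0.3) and fell by 0.35 on the log2 scale in Si-FIBP#2 cells (adjusted p = 0.00168). HMGB2 and MKI67 are also in the G2/M list.

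**Figure D5:**
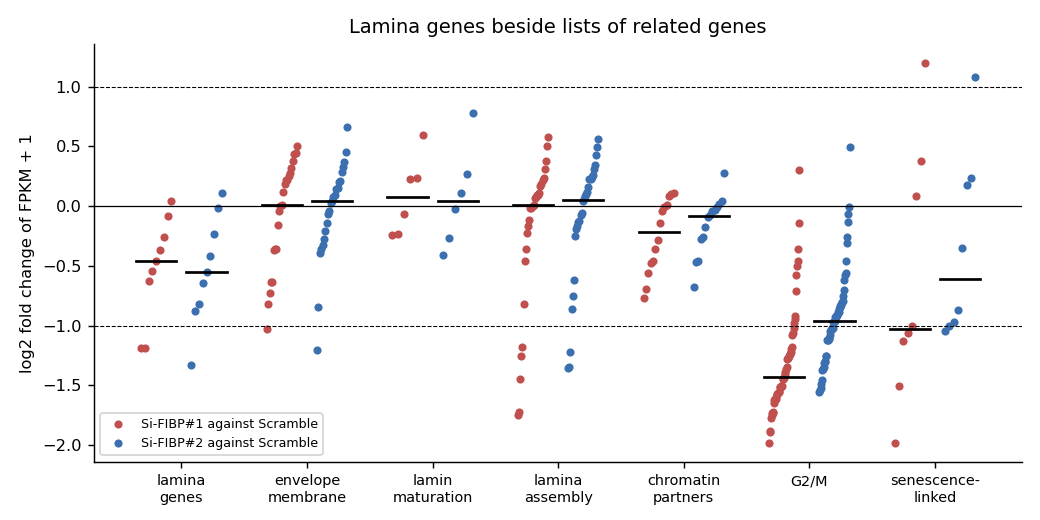
Log2 fold change of FPKM + 1 against Scramble (y axis) of the tested genes in each list (points, sorted within a list) in Si-FIBP#1 cells (red) and Si-FIBP#2 cells (blue), with list medians (black bars) and 2-fold (dashed lines). The median of the lamina genes is -0.46 and -0.55, that of the G2/M list -1.44 and -0.96, and those of the envelope membrane, maturation and assembly lists lie between 0.0059 and 0.08.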

How the data were processed

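RNA-seq libraries of 9 samples were analysed, grouped by their labels. Each sample has a table of transcript-level FPKM values, rounded to 2 decimals, as the authors deposited it. The submitters' processing notes name HISAT2 and StringTie, without versions. The unit was inferred from the values, and the genome build and annotation release are not given in the sources used here. Assembled transcripts took 5.45% to 5.84% of the FPKM. Errors of StringTie in sharing reads among isoforms affect transcript values more than gene sums.

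FPKM were summed per gene, and genes reaching 1 FPKM in 3 or more samples were tested on log2(FPKM + 1), a scale that understates changes of low genes, with limma 3.58.1 (R 4.3.3, empirical Bayes with a mean-variance trend, 1 fit over 9 samples). P-values were adjusted by Benjamini-Hochberg over all tested genes, and a call needed an adjusted p under 0.05 and over 2-fold, the thresholds of the study. Transcripts were fitted in the same way. The gene fit was also run on simulated data for Si-FIBP#1 against Scramble, and no result above rests on that run. Isoform shares were tested with two-sided exact permutation tests. Depth was estimated from steps of low FPKM in single-transcript genes (mean cosine 0.751 to 0.811, where 1 means whole fragments throughout), so it is approximate, no count test was run and no counting interval is given. Coordinates and transcript models are from GENCODE release 29 (GRCh38), matched by Ensembl identifier, and promoters from RefSeq (GRCh38.p14).

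The members and lists were chosen with earlier results of these data known, and 2 list genes are not reported here. LBR, the lamin B receptor, was named after its values were seen. By rule, the text names the 9 lamina genes, FIBP, every list gene called with either siRNA (FDR and 2-fold) and, per list, the next largest rise and fall, and the 5 genes with the highest correlation with LMNB1. Alternatives were TPM or median-ratio scaling, a pseudocount of 0.1, no filter or 5 FPKM, only the groups compared, no fold threshold, Ensembl transcripts only, no variance trend, a replicate block and the omission of single samples. Other software was scipy 1.17.1 and pandas 2.3.3 in Python 3.11.15.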

Additional observations from a re-analysis of the deposited data

Results flagged for a closer look

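Several genes of the report differed between the siRNAs by the test of the difference itself (limma, Si-FIBP#2 against Si-FIBP#1, adjusted p under 0.05). Among the lamina genes the log2 difference was 0.308 for LMNB1, 0.223 for BANF1, 0.363 for SUN2 and -0.194 for LMNB2. Among their transcripts it was 0.271 for ENST00000312175, the main BANF1 transcript (limma over transcripts, adjusted p = 0.0183). It was -0.964 for ENST00000524628, the BANF1 transcript with no coding sequence (limma over transcripts, adjusted p = 0.0458, near the threshold). These 2 transcripts differed in opposite directions. ENST00000475819 of LMNB2 is left out, since it passed the filter on low values only through the Si-FIBP#1 samples and was listed at 0 in every Si-FIBP#2 sample. Of 53 G2/M genes, 51 had a higher value with Si-FIBP#2 than with Si-FIBP#1, as did 8605 of the 14985 tested genes. By the adjusted p, 40 of the 53 were higher, against 9.58% of all genes.

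Of the genes named above from the other lists, the log2 difference was 0.373 for CCNB1, 0.322 for CCNB2, 0.507 for CDCA2, 0.403 for CDK1, 0.292 for LBR, 0.262 for HMGB1, 0.933 for HMGB2, 0.534 for MKI67, 1.235 for CDKN1A and -0.441 for CDKN2A. In all, 3 of 23 envelope, 6 of 28 assembly and 2 of 14 chromatin genes were higher by this test, against 9.58% of all genes. Some of these are not named here. Of the genes most like LMNB1, it was 0.398 for CIP2A, 0.48 for KIF2C and 0.431 for UBE2C. FIBP itself differed by 0.13 ± 0.18 (adjusted p = 0.686).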

How the results depend on the processing

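The count of called lamina genes was the same under every alternative that kept the fold threshold. With no fold threshold it was 7 with Si-FIBP#1, 7 with Si-FIBP#2, 6 with both together and 4 between the siRNAs. TMPO stayed past 2-fold and significant with each siRNA in all 19 alternatives. LMNB1 did so with Si-FIBP#1 in all 19 (log2 fold change -1.26 to -1.14), while with Si-FIBP#2 it ranged from -0.99 to -0.83. Of these alternatives, no fold threshold repeats the main fit. Another filter, no variance trend, a replicate block and only the groups compared cannot move a fold change. Omitting a sample outside the comparison cannot either, so these bear on significance alone. Of 675 recomputed fold changes of lamina genes, 25 lost significance, all of SUN2, LEMD3, LMNB2 or BANF1, and 3 gained it, all of LEMD3. No significant value changed sign, while the values of EMD, and of SUN2 with Si-FIBP#2 (0.11, but -0.001 with median-ratio scaling), were near 0 and did. Median-ratio scaling moved the median of all genes with Si-FIBP#2 from 0.11 to 0.01. Over all genes, the number called higher with Si-FIBP#1 and Si-FIBP#2 was 382 and 438, but 849 and 953 with a pseudocount of 0.1 and 249 and 287 with a filter of 5 FPKM, and with both together 354, but 891 with that pseudocount. Between the siRNAs 40 were higher and 44 lower, but 105 and 67 with that pseudocount, 64 higher with TPM scaling and 71 higher without Si-FIBP#2 replicate 2. By the adjusted p alone, 1 lamina gene differed between the siRNAs without Si-FIBP#1 replicate 1 and 2 without Si-FIBP#2 replicate 3. The LAP2 and lamin A shares of gene FPKM no longer passed at an unadjusted p when a Scramble replicate was left out, where the exact test of fewer samples cannot pass. With Ensembl transcripts only, the LMNB1 share of lamin FPKM was 16.5%, 10.2% and 13.9% in Scramble, Si-FIBP#1 and Si-FIBP#2.

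Same-numbered samples of different groups correlated with r of -0.0568 to 0.103 in their deviations from the group means. For samples with different numbers r was -0.142 to 0.049. The ranges overlap and the same-numbered range reaches higher, so whether the replicate numbers pair the samples cannot be told from them. With the replicate number as a block, the number of lamina genes called was 2 with Si-FIBP#1, 1 with Si-FIBP#2, 2 with both together and 0 between the siRNAs, as without the block, and 6 rather than 7 passed by the adjusted p alone with Si-FIBP#1, where SUN2 was lost (adjusted p = 0.0668).

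Without read counts in the tables, precision rests on the spread among 3 samples, and FPKM show shares of the mRNA pool, not amounts per cell. RNA levels do not give protein levels.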
